A study of Mus musculus with 8 samples.

Results

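The genes described here are 34 mouse genes of the complement system, measured in the brown adipose tissue of 8 mice. They were taken by name from the 41388 genes of the deposited tables. By role they are 6 classical-pathway initiators (C1qa, C1qb, C1qc, C1ra, C1rl and C1s1), 4 lectin-pathway initiators (Masp1, Masp2, Fcna and Fcnb), 6 convertase components (C2, C3, C4a, C4b, Cfb and Cfp), 4 terminal components (Hc, C6, C7 and C8g), 6 receptors (C3ar1, C5ar1, C5ar2, Itgam, Itgb2 and Vsig4) and 8 regulators (Serping1, C4bp, Cd55, Cd46, Cr1l, Cd59a, Cfi and Clu). The 4 ANKO mice carried a Cre transgene under the adipocyte promoter of adiponectin together with floxed Nampt alleles, a model that removes Nampt from adipocytes and leaves it in the immune, stromal and endothelial cells of the depot. The 4 control mice, called WT here, were labelled wild type with the genotype flox/flox, so both groups carried floxed Nampt. All 8 were C57BL/6J mice on regular chow at room temperature, and the labels give no age. Nampt makes nicotinamide mononucleotide in the salvage route to NAD+, and the comparison asks which brown fat transcripts differ when adipocytes lack it.

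Complement is a cascade of plasma proteins that tags particles for uptake, draws in leukocytes and can perforate membranes. In the classical pathway C1q binds antibody or altered surfaces and switches on the proteases C1r and C1s, and in the lectin pathway ficolins and collectins do so through the MASP proteases. Both cleave C4 and C2 into an enzyme that cleaves C3, the alternative pathway amplifies C3 cleavage with factors B and D, and the fragments C3a and C5a act on receptors of leukocytes. The liver makes most of the plasma proteins, while macrophages are a main source of C1q and adipose tissue makes C3 and the protease factor D, also called adipsin.

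The libraries held 5738067 to 49697156 gene counts, 21771276 to 49697156 in WT and 5738067 to 26426476 in ANKO. The share of rRNA rows, which were set aside, differed without overlap, at 2.83 to 3.53% in the WT libraries and 0.801 to 1.13% in the ANKO libraries. Levels are given as CPM (counts per 1e+06 counts) scaled between libraries by TMM. On that scale 3 counts stood for 0.0683 CPM in WT4, which had the most counts, and for 0.437 CPM in ANKO4, which had the fewest, counting error only. Levels of different genes are compared only as RPKM, the CPM per kb of exon. Nampt itself was at 484, 484, 571 and 495 CPM in WT1 to WT4 and at 67.4, 69.5, 77.6 and 74.6 CPM in ANKO1 to ANKO4, so each library followed its label. Of 14 macrophage markers 13 were higher in ANKO and their summed level was 168 to 241 CPM across WT and 1506 to 2368 CPM across ANKO. Of 12 fibroblast markers 10 were higher, with sums of 1164 to 1627 and 4649 to 8432 CPM. All 4 brown adipocyte markers were lower, with sums of 5845 to 12885 and 784 to 2863 CPM, and so were all 6 general adipocyte markers, with sums of 10579 to 12298 CPM across WT and 5242 to 7858 CPM across ANKO. Skeletal muscle markers summed to 29.2 to 2561 CPM in WT, where WT3 and WT4 were lowest, and to 8593 to 13429 CPM in ANKO. Markers of hepatocytes, the main source of plasma complement, summed to 4.90 to 17.7 and 11.8 to 41.7 CPM. Other leukocyte markers were higher too: 7 of 8 for lymphocytes, with sums of 3.33 to 5.35 and 19.1 to 30.9 CPM, and 5 of 6 for dendritic cells, where Zbtb46 was lower and the sums were 69.7 to 85.7 and 74.1 to 79.2 CPM. Of 8 neutrophil markers 1 had enough counts to be tested, Csf3r, which was 9.74-fold higher, while Ly6g had 0 counts in each library, and the 8 summed to 1.04 to 1.28 and 6.11 to 10.2 CPM. All 12 interferon response genes listed were higher, with sums of 125 to 183 and 773 to 893 CPM. Of 6 endothelial markers 1 was higher, 3 were lower and 2 were not called, with sums of 933 to 1077 and 742 to 822 CPM. Over all genes tested 30.6% were called higher and 27.6% lower at an adjusted p under 0.05. The part of these markers and of the rRNA share in the values that follow was not tested. In such bulk samples, more cells of a type and more RNA per cell cannot be told apart.

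Most of the 34 complement genes were higher in ANKO, while C3, the most abundant of the 34 per kb, was lower. The call of C3 was kept in 15 of 22 alternative fits. The C1q subunits, C4b, C2, factor B, C5 (Hc) and the receptors for C3a, C5a and iC3b rose by up to 22.2-fold, and the terminal component C8g and the membrane regulator Cd59a fell beside C3. Of the 34 genes 31 had enough counts to be tested, and 22 of them were called higher and 3 lower in ANKO (edgeR, Benjamini-Hochberg adjusted p under 0.05 over all 16705 genes tested). Over all genes tested 30.6% were called higher and 27.6% lower. All 4 ANKO libraries lay above all WT libraries in 22 of the tested genes and below them in 3, against 28.7% and 26.4% of all genes tested. C7 was called although its groups overlapped, and C4a was not called although they did not. The 6 tested genes that were not called were C1rl, C4a, Masp2, Cfi, Cd46 and Cr1l. C6, Hc, Cfb and Masp1 passed the filter on low counts through the ANKO libraries alone and Cfi through the WT libraries alone, so a difference was built into their being tested. The other 26 tested genes reached the minimum in all 8 libraries. Fcnb had 0 counts in every library, C4bp had 0 to 4 counts and Vsig4 0 or 1 count in WT and 1 to 14 in ANKO, and these 3 were not tested. The median log2 fold change was 2.13 over the 31 tested genes and -0.01001 over all genes tested. With muscle markers as a covariate 19 were called higher and 1 lower, and over all genes 2461 in place of 5111 were called higher and 1828 in place of 4615 lower.

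**Figure D1:**
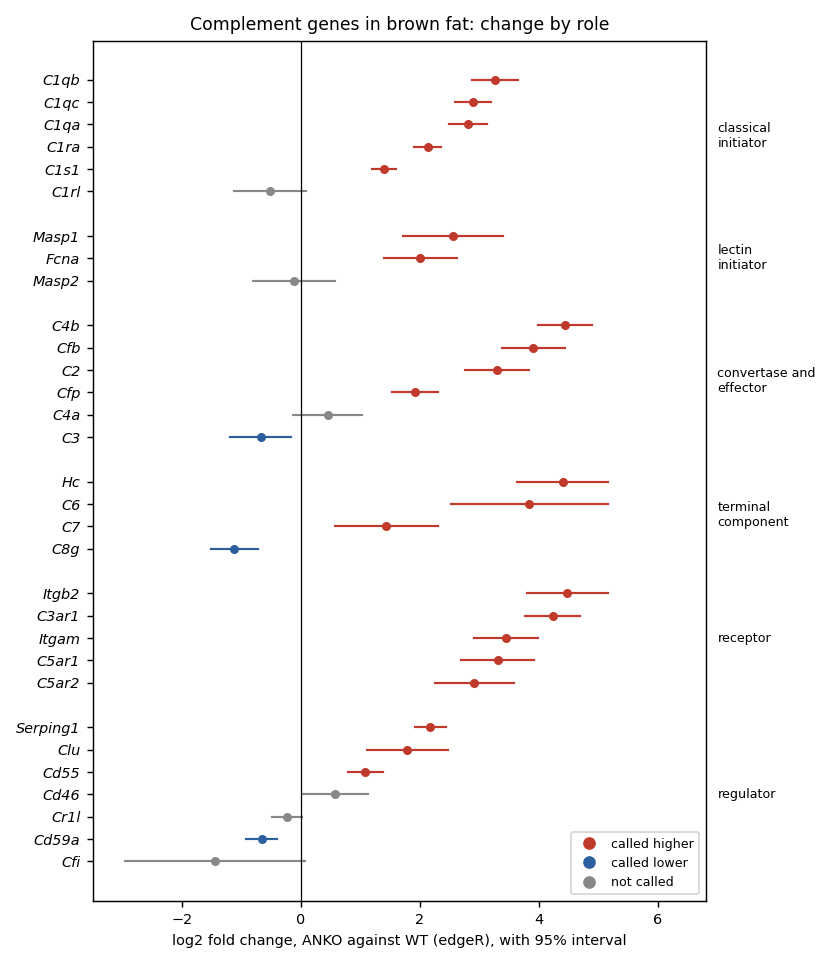
Log2 fold change of the 31 tested complement genes, ANKO against WT, with 95% intervals from edgeR, grouped by role. Itgb2 (4.48), C4b (4.44) and Hc (4.40) lie farthest to the right, and C8g (-1.13), Cd59a (-0.66) and C3 (-0.68) are the 3 called lower. C6, Hc, Cfb and Masp1 passed the filter on low counts through the ANKO libraries alone.

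The 3 genes of C1q, the recognition molecule of the classical pathway, rose together. They lie side by side on the minus strand of chromosome 4 (C1qb 136880129 to 136886187, C1qc 136889804 to 136893065 and C1qa 136895917 to 136898803, GRCm38). C1qa, the A chain (ENSMUSG00000036887), was at 16.8, 19.5, 18.0 and 25.4 CPM in WT1 to WT4 and at 147, 145, 146 and 119.9 CPM in ANKO1 to ANKO4. The lowest ANKO library was therefore far above the highest WT library, and the fold change was 6.99 (log2 2.81, standard error 0.14, edgeR adjusted p = 3.60e-07). C1qb, the B chain, went from 9.46, 13.99, 13.2 and 17.1 CPM in WT to 127, 120.3, 151 and 118 CPM in ANKO, a 9.57-fold rise (edgeR adjusted p = 4.75e-07). C1qc, the C chain, went from 14.6, 17.6, 16.9 and 21.5 to 139, 116, 147 and 121 CPM, a 7.38-fold rise (edgeR adjusted p = 2.41e-07). The protein holds the 3 chains in equal number, but their transcripts did not keep one ratio per kb of exon. The RPKM ratio of C1qa to C1qb was 1.86, 1.46, 1.42 and 1.56 in the WT libraries and 1.22, 1.26, 1.01 and 1.06 in the ANKO libraries, without overlap. C1qb thus rose more than C1qa (exact two-sided permutation test of the log ratio, p = 0.0286, the smallest that 4 against 4 allow, adjusted p = 0.0381 over 4 ratios tested). It also rose more than C1qc, with a C1qb to C1qc ratio of 1.34 ± 0.127 in WT and 1.76 ± 0.102 in ANKO (SD, n = 4 each; exact permutation p = 0.0286). The ratio of C1qa to C1qc was 1.98 to 2.20 in WT and 1.84 to 2.32 in ANKO, and the groups overlapped (exact permutation p = 0.4).

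The 2 proteases that C1q activates also rose, by smaller fitted factors, a difference that was not tested. C1ra, which encodes C1r, was at 7.62, 8.74, 7.69 and 8.37 CPM in WT1 to WT4 and at 38.3, 32.3, 37.0 and 33.8 CPM in ANKO1 to ANKO4, 4.36-fold higher (log2 2.13, standard error 0.10, edgeR adjusted p = 2.53e-07). C1s1, which encodes C1s, the protease that cleaves C4 and C2, went from 33.3, 34.7, 30.8 and 35.2 CPM to 87.0, 79.3, 95.1 and 90.3 CPM, 2.63-fold higher (log2 1.39, standard error 0.0888, edgeR adjusted p = 1.26e-06). Both genes were tight within groups and did not overlap between them. C1rl, the gene of a C1r-like protease next to C1ra (C1rl 124493113 to 124510643, C1ra 124512632 to 124523440 and C1s1 124530345 to 124542359, chromosome 6), did not rise with these neighbours. It was at 19.0, 15.4, 15.8 and 11.2 CPM across WT and 14.7, 12.1, 9.65 and 5.25 CPM across ANKO, with a log2 fold change of -0.53 (95% interval -1.13 to 0.0761, edgeR adjusted p = 0.119). ANKO1 and ANKO2 lay within the WT range, and without ANKO1, the highest ANKO library, the log2 fold change was -0.75 (edgeR adjusted p = 0.0426). C1s1 shares 18.4% of its exon bases with an antisense gene that had 0 counts, and the near-identical genes C1rb and C1s2 had 0 counts and 1 to 9 counts, so how reads common to the copies were counted is uncertain.

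**Figure D2:**
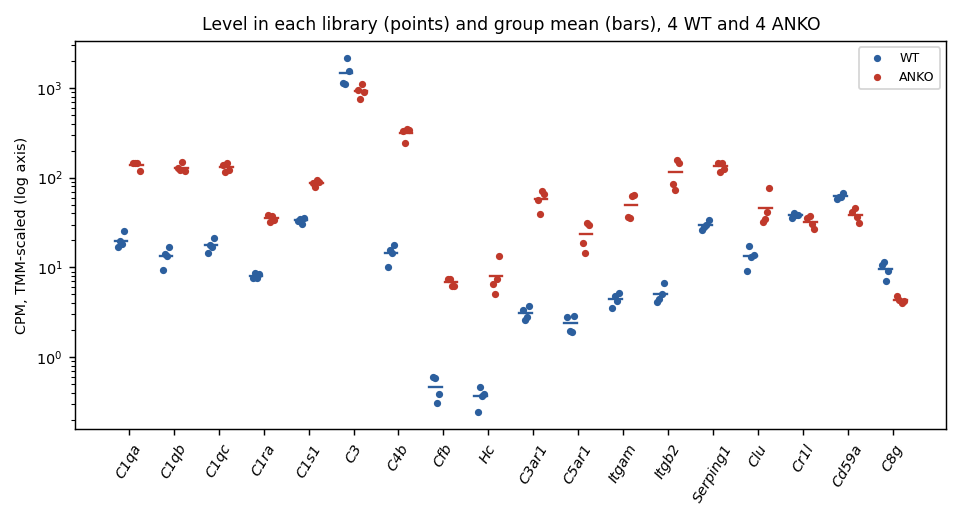
CPM of 18 complement genes in each library (points, log axis) with the mean of each group (bars), WT in blue and ANKO in red. C3 stays the highest in both groups, at 1474 and 920.2 CPM on average, and C4b moves from 14.5 to 315 CPM.

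Promoter sequences of 24 of the 34 genes were at hand from RefSeq (GRCm38.p6), not including C1qa, C4b, C2, Cfb, Serping1 or Itgb2. The 250 bases before each start site were searched on both strands for 3 short motifs. The 24 genes had 27 windows. The core of the PU.1 site of myeloid genes, GAGGAA, was in 7 of these 27 windows, from 7 genes, and in 23.25% of all 32851 windows. The core of the interferon-stimulated response element, GAAANNGAAA, was in 1 of the 27 windows and 2.98% of all windows. The interferon-gamma-activated site, TTCNNNGAA, was in 2 of the 27 and in 7.02% of all. These 2 windows were those of C7, which was called higher, and of Masp2, which was not called. The GAGGAA windows were those of C1qb, C1qc, C5ar2, Fcna and Itgam, which rose, of Cd59a, which fell, and of Vsig4, which was not tested. Stretches around a match are shown for C1qb, C1qc, Itgam and Cd59a, so for genes of either direction, for the interferon-gamma-activated site of C7, and for the 1 interferon-stimulated response element core, also in Cd59a. Capitals mark the motif, each is written 5′ to 3′ on the strand of the gene, and C1qc carries GAGGAA on the opposite strand.
C1qb, chr4:136886201-136886255, minus strand: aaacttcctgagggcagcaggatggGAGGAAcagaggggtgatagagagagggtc
C1qc, chr4:136893077-136893132, minus strand: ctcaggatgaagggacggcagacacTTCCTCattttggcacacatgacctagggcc
Itgam, chr7:128062531-128062586, plus strand: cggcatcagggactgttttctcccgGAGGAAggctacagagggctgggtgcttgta
C7, chr15:5063904-5063962, minus strand: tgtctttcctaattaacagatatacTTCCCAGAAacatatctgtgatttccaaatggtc
Cd59a, GAGGAA, chr2:104095714-104095769, plus strand: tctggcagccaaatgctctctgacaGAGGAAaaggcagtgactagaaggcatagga
Cd59a, GAAANNGAAA, chr2:104095589-104095648, plus strand: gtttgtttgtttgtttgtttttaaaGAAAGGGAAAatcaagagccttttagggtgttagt
A match describes the letters of the window and shows no binding.

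Lectin-pathway genes were low throughout. Fcna, which encodes ficolin A, a lectin that binds sugars on microbes, was at 0.743, 0.971, 1.10 and 0.888 CPM in WT1 to WT4 and at 5.13, 2.42, 4.26 and 2.77 CPM in ANKO1 to ANKO4. All 4 ANKO libraries were above WT, 4.01-fold on the fitted scale (edgeR adjusted p = 1.68e-04). Fcna shares 6.55% of its exon bases with the antisense gene Fcnaos. Masp1, a protease of the lectin complexes, was at 0.0910 to 0.350 CPM across WT and 1.13 to 1.57 CPM across ANKO (log2 fold change 2.55, edgeR adjusted p = 2.63e-04). It was not called once muscle was a covariate (log2 fold change 1.49, edgeR adjusted p = 0.104). Masp1 passed the filter on low counts through the ANKO libraries alone. Masp2, its partner that cleaves C4 and C2, was at 0.446 to 0.738 CPM across WT and 0.437 to 0.757 CPM across ANKO and was not called. Masp2 shares 54.9% of its exon bases with Tardbp on the opposite strand, an abundant gene, so its counts are uncertain.

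C3, the central protein of the cascade, and C4b, which encodes the C4 of the enzyme that cleaves it, moved in opposite directions. C3 (ENSMUSG00000024164, chromosome 17, 57203970 to 57228136, GRCm38) was the most abundant of the 34 genes per kb in both groups. Its level was 1123, 1099, 2131 and 1544 CPM in WT1 to WT4 and 948, 745, 1095 and 893 CPM in ANKO1 to ANKO4. WT3 was the highest library and the top ANKO library, ANKO3, lay just under the lowest WT library. The fall was 1.60-fold (log2 -0.68, 95% interval -1.19 to -0.17, edgeR adjusted p = 0.0278). It rested in part on WT3, without which the log2 fold change was -0.46 (adjusted p = 0.076), and without both WT3 and WT4 it was -0.29 (adjusted p = 0.269). The call was also lost without WT4 (-0.67), ANKO1 (-0.69) or ANKO2 (-0.60), with total counts in place of TMM (-0.48), and with the muscle covariate, where the value was 0.00571. C4b (ENSMUSG00000073418, chromosome 17, 34728380 to 34743882) rose 21.7-fold, from 10.0003, 15.7, 14.4 and 17.9 CPM in WT to 334, 242, 347 and 336 CPM in ANKO (log2 4.44, 95% interval 3.98 to 4.89, edgeR adjusted p = 2.31e-07). The lowest ANKO library, ANKO2, was far above the highest WT library. The RPKM ratio of C3 to C4b, chosen after the values were seen, fell from 124, 77.5, 164 and 95.7 in the WT libraries to 3.15, 3.41, 3.49 and 2.94 in the ANKO libraries.

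C4a, the nearby copy of C4b, was at 0.743, 0.699, 0.702 and 0.478 CPM across WT and 0.957, 0.807, 0.851 and 0.874 CPM across ANKO and was not called (log2 fold change 0.45, 95% interval -0.13 to 1.03). The annotation used for symbols lists C4a as a processed transcript, not as protein-coding. The sequences of C4a and C4b are nearly the same, so how reads were split between them is uncertain. C2, the protease subunit of the classical convertase, was at 1.73, 1.94, 1.07 and 1.57 CPM in WT1 to WT4 and 16.7, 10.03, 17.1 and 17.5 CPM in ANKO1 to ANKO4, 9.78-fold higher (edgeR adjusted p = 2.79e-06). Its counterpart in the alternative pathway, factor B (Cfb), rose 14.97-fold from 0.594, 0.583, 0.305 and 0.387 CPM to 7.42, 7.38, 6.24 and 6.27 CPM (edgeR adjusted p = 9.64e-07). Both stayed low beside C3 and C4b, at 3.96 ± 0.918 and 2.42 ± 0.234 RPKM in ANKO against 179 ± 28.1 and 55.2 ± 8.57 RPKM (SD, n = 4 each). C2, Cfb, C4a and C4b lie within one stretch of chromosome 17, from 34728380 to 34898265. Cfb shares 79.5% and C2 42.8% of exon bases with Gm20547, a gene model with 0 counts, and how reads of the shared bases were counted is not known. Cfb passed the filter on low counts through the ANKO libraries alone, so a difference was built into its being tested. Cfp, on the X chromosome, encodes properdin, which stabilises the alternative convertase. It was at 7.52, 8.27, 9.61 and 13.3 CPM across WT and 35.4, 32.8, 38.1 and 40.5 CPM across ANKO, 3.76-fold higher with no overlap (edgeR adjusted p = 1.07e-05).

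The make-up of the summed transcripts of the 34 genes changed with these opposite movements. Cfd, the gene of factor D, is not among the 34 and enters neither the sums nor the shares. Its level was above these sums in WT, at 3847 ± 773 RPKM, and 364 ± 84.9 RPKM in ANKO (SD, n = 4 each). Summed over the 34 genes, the level was 361, 373, 567 and 476 RPKM in WT1 to WT4 and 834, 727, 927 and 806 RPKM in ANKO1 to ANKO4. C3 held 60.5, 57.3, 73.1 and 63.0% of that sum in the WT libraries and 22.1, 19.9, 23.0 and 21.6% in the ANKO libraries. The 3 C1q genes held 8.98, 10.9, 6.75 and 10.8% in WT and 39.6, 42.6, 38.4 and 35.5% in ANKO. C3 thus led in each WT library and the C1q genes together in each ANKO library. C4b held 0.583 ± 0.140% in WT and 6.69 ± 0.645% in ANKO, and the 6 receptors 0.977 ± 0.192% and 8.39 ± 2.30% (SD, n = 4 each). The regulators Cd59a and Cr1l, which came next after C3 in level in WT, went from 13.2 ± 2.44% to 5.04 ± 1.17%. These shares sum to a whole, so a rise of some lowers the others.

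**Figure D3:**
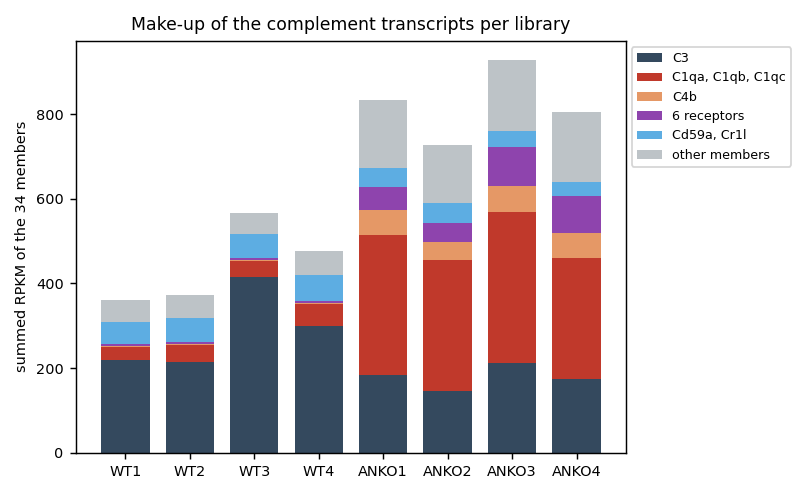
Summed RPKM of the 34 complement genes in each library, split into C3, the 3 C1q genes, C4b, the 6 receptors, Cd59a with Cr1l, and the rest. C3 is the largest block in WT1 to WT4 and the C1q block the largest in ANKO1 to ANKO4. Cfd is not among the 34 genes.

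Terminal components, which build the membrane attack complex on C5b, did not move as one. Hc encodes C5, the precursor of the attractant C5a, and rose 21.0-fold from 0.248, 0.466, 0.366 and 0.387 CPM in WT1 to WT4 to 6.47, 5.07, 7.47 and 13.3 CPM in ANKO1 to ANKO4 (log2 4.40, standard error 0.35, edgeR adjusted p = 4.40e-06). ANKO4 was the highest of them. Both Hc and C6 passed the filter on low counts through the ANKO libraries alone, so a difference was built into their being tested. C6, the next protein to join, had 2, 0, 3 and 12 counts in WT and 2.95, 1.73, 0.851 and 2.04 CPM in ANKO (log2 fold change 3.84, 95% interval 2.51 to 5.16, edgeR adjusted p = 3.67e-04). Its size was not well fixed at these counts: without WT4, which held the most of them in WT, the log2 fold change was 4.80, and with the muscle covariate 7.86. C7, its neighbour on chromosome 15, was at 1.53, 1.204, 2.14 and 2.34 CPM across WT and 3.18, 2.30, 7.19 and 7.58 CPM across ANKO (log2 fold change 1.44, edgeR adjusted p = 0.0094). For C7 the 2 groups overlapped and ANKO3 and ANKO4 carried the rise, and the call was lost without WT1 and WT2, a setting chosen after seeing the data (1.10), with counts thinned to the lowest library (1.25) and with the muscle covariate (2.13). C8g, the lipocalin subunit of C8, fell 2.18-fold, from 10.7, 11.5, 7.14 and 9.13 CPM to 4.86, 4.38, 3.97 and 4.23 CPM (edgeR adjusted p = 4.03e-04), without overlap. It was the 1 of the 3 falls that kept its call in each of the alternatives tried. The other C8 chains and C9 were close to 0, with 0 to 3 counts for C8a, C8b and C9 in any library.

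All 5 tested receptors rose, and Itgb2, the β2 integrin chain shared by the leukocyte integrins, had the highest fitted fold change of the 31 tested genes. Itgb2 (ENSMUSG00000000290, chromosome 10, 77530252 to 77565708) went from 4.16, 4.43, 5.10 and 6.69 CPM in WT1 to WT4 to 84.1, 72.1, 157 and 146 CPM in ANKO1 to ANKO4, 22.2-fold (log2 4.48, 95% interval 3.796 to 5.16, edgeR adjusted p = 3.09e-06). Its partner Itgam, the CD11b chain that with Itgb2 forms complement receptor 3 for iC3b, rose 10.9-fold from 3.56, 4.86, 4.24 and 5.23 CPM to 36.2, 35.3, 62.2 and 64.1 CPM (edgeR adjusted p = 2.35e-06; log2 3.45, or 4.05 with counts thinned to the lowest library). In both genes ANKO3 and ANKO4 were above ANKO1 and ANKO2, and all ANKO libraries were above WT. The RPKM ratio of Itgam to Itgb2 was 0.410, 0.525, 0.398 and 0.374 in WT and 0.206, 0.234, 0.190 and 0.211 in ANKO (exact two-sided permutation p = 0.0286, adjusted p = 0.0381 over 4 ratios), so Itgb2 rose more than Itgam. C3ar1, the receptor for C3a, rose 18.7-fold from 3.37, 2.60, 2.78 and 3.69 CPM in WT to 56.9, 39.4, 71.6 and 66.3 CPM in ANKO (edgeR adjusted p = 2.85e-07). C5ar1, the receptor for C5a, went from 2.77, 1.98, 1.89 and 2.84 CPM to 18.7, 14.4, 31.2 and 30.0 CPM, 9.88-fold (edgeR adjusted p = 6.44e-06). C5ar2, a second C5a receptor encoded beside C5ar1 on chromosome 7, went from 0.446, 1.05, 0.641 and 0.705 to 5.47, 3.57, 5.30 and 7.43 CPM, 7.52-fold (edgeR adjusted p = 2.44e-05). The WT and ANKO libraries did not overlap for any of the 5. Vsig4, a receptor for C3b on resident macrophages, was at most 0.567 CPM in any library.

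Of the 4 secreted regulators Serping1 and Clu rose, Cfi was not called and C4bp was not tested. Serping1, the plasma C1 inhibitor that inactivates C1r and C1s, rose 4.51-fold, from 26.3, 28.3, 29.8 and 33.95 CPM in WT1 to WT4 to 145, 116, 147 and 125 CPM in ANKO1 to ANKO4 (log2 2.17, standard error 0.12, edgeR adjusted p = 4.75e-07). All ANKO libraries were above all WT libraries. Clu encodes clusterin, a secreted chaperone that also binds the terminal complex, and went from 9.16, 17.2, 12.9 and 13.9 CPM to 32.1, 34.5, 41.5 and 77.2 CPM, 3.45-fold (edgeR adjusted p = 8.72e-04), with ANKO4 well above the rest. With the muscle covariate its log2 fold change was 1.59 (adjusted p = 0.07). Cfi, the protease that degrades C3b and C4b, was low and scattered at 0.446, 0.622, 2.29 and 1.27 CPM across WT and 0.268, 0.922, 0.0946 and 0.729 CPM across ANKO, and its log2 fold change of -1.45 had a 95% interval of -2.96 to 0.0606. Without WT3 and WT4 it was -0.31, and without WT1 it passed as lower, at -1.71 (adjusted p = 0.0404).

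Of the 4 regulators on cell membranes 1 rose, 1 fell and 2 were not called. Cd59a, which blocks the membrane attack complex, fell 1.59-fold from 58.2, 60.4, 60.8 and 67.3 CPM in WT1 to WT4 to 40.9, 46.3, 36.9 and 31.2 CPM in ANKO1 to ANKO4 (log2 -0.66, 95% interval -0.93 to -0.40, edgeR adjusted p = 8.92e-04). The groups did not overlap, and with the muscle covariate the log2 fold change was -0.51 (adjusted p = 0.0823). Cr1l, also called Crry, the rodent inhibitor of C3 convertases, was at 35.3, 39.9, 38.4 and 38.8 CPM across WT and 35.2, 37.3, 30.5 and 26.5 CPM across ANKO and was not called (log2 fold change -0.23, 95% interval -0.48 to 0.0186), and without ANKO2 it passed as lower at -0.31 (adjusted p = 0.0463). Cd55, the decay-accelerating factor, rose 2.11-fold from 8.86, 7.58, 6.47 and 7.396 CPM to 14.8, 15.2, 15.9 and 18.1 CPM (edgeR adjusted p = 8.18e-05). Cd46, a cofactor for cleavage of C3b, was at 2.84 to 4.60 CPM across WT and 3.11 to 6.41 CPM across ANKO (log2 fold change 0.58, edgeR adjusted p = 0.0686). It passed as higher with upper-quartile (0.67) or total-count scaling (0.76) and without WT1 (0.68) or ANKO2 (0.75). Per kb, Cd59a and Cr1l remained the most abundant of the 4, at 21.4 ± 3.54 and 19.5 ± 2.92 RPKM in ANKO, against 3.29 ± 0.301 RPKM for Cd55 (SD, n = 4 each). The level of C3 in ANKO was 179 ± 28.1 RPKM on that scale.

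Among 28 other complement genes 14 had enough counts, of which 7 were called higher and 4 lower, with a median log2 fold change of 0.54. Over all genes tested the shares were 30.6% higher and 27.6% lower. Cfd, the adipsin gene that supplies factor D for the alternative convertase, went from 2631, 3343, 4123 and 4107 CPM to 426, 299.5, 369 and 248 CPM (log2 fold change -3.40, edgeR adjusted p = 2.18e-06). The alternative pathway thus held a fall of factor D beside rises of factor B and properdin. Of these genes Cfb passed the filter on low counts through the ANKO libraries alone. Itgax, the CD11c chain that pairs with Itgb2 in complement receptor 4, rose from 1.04, 1.17, 1.28 and 1.43 CPM in WT to 25.4, 22.7, 53.3 and 57.8 CPM in ANKO (log2 4.98, edgeR adjusted p = 4.41e-06). As in Itgam and Itgb2, ANKO3 and ANKO4 were the higher libraries. C1qbp, a mitochondrial protein that was first found as a binder of C1q, fell from 52.5 ± 6.52 to 24.1 ± 2.05 CPM (SD, n = 4 each). Cpn2, the regulatory subunit of the carboxypeptidase that inactivates C3a and C5a, fell from 81.7 ± 17.9 to 12.6 ± 5.10 CPM (SD, n = 4 each), and its catalytic partner Cpn1 had 0 to 5 counts.

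Set against the level of macrophage markers, the complement genes stood at different levels. The mean log2 CPM of 14 macrophage markers, none of them a complement gene, was higher in ANKO by 3.13, and each gene was refitted with that level as its scale. Relative to it 5 of the 31 tested genes were higher, 17 were lower and 9 were not called, while over all genes 1.5% were called higher and 90.3% lower. The 3 C1q genes were among those not called, with log2 differences of -0.29 (95% interval -0.68 to 0.11) for C1qa, 0.16 (-0.23 to 0.54) for C1qb and -0.23 (-0.59 to 0.13) for C1qc. With the median of the markers as the scale C1qa and C1qc passed as lower, as C1qa also did without ANKO2 (-0.41), at -0.47 and -0.41. The 5 higher genes were Itgb2 (1.32), C4b (1.32), Hc (1.28), C3ar1 (1.08) and Cfb (0.80). Of these Cfb lost its call in 6 of 11 alternatives, among them without WT3 (0.64), WT4 (0.64), ANKO1 (0.72) or ANKO2 (0.66). Hc and Cfb had passed the filter on low counts through the ANKO libraries alone, so a difference was built into their being tested. The markers themselves did not rise evenly, from a log2 fold change of -0.12 for Cd163 to 5.77 for Lgals3, and the level was taken as known, without its own error.

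Fibroblast markers gave a second scale, since stromal cells are known to make C1r, C1s, C3 and C1 inhibitor. Their mean log2 CPM was higher in ANKO by 1.63. Relative to it C1ra (0.51, 95% interval 0.20 to 0.81) and Serping1 (0.55, 0.23 to 0.87) were called higher, and C1s1 (-0.23, -0.50 to 0.0352), Clu (0.13, -0.34 to 0.59) and C7 (-0.22, -0.96 to 0.51) were not called. C3 was lower, with a log2 difference of -2.32 on this scale, against a median of -1.63 over all genes. In all, 16 of the 31 tested genes were higher and 10 lower relative to fibroblast markers, while over all genes 8.73% were higher and 78.1% lower. The 16 include C6, Hc, Cfb and Masp1, which passed the filter through the ANKO libraries alone. The fibroblast markers themselves rose unevenly too, from a log2 fold change of 0.19 for Pdgfrb to 3.06 for Col1a1. Relative to their own mean 4 of the 12 were called higher, among them Lum (0.48), and 2 lower. This level was also taken as known, without its own error. Which cells carried each transcript was not measured.

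**Figure D4:**
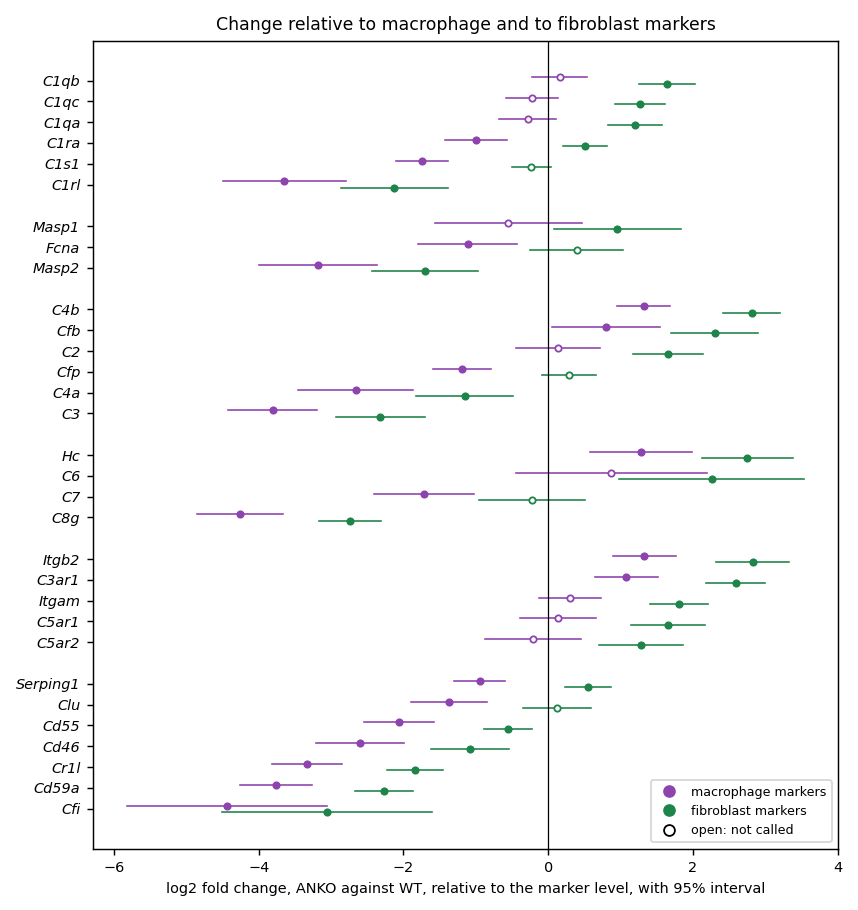
Log2 fold change of the 31 tested genes relative to the mean level of 14 macrophage markers (purple) and of 12 fibroblast markers (green), with 95% intervals, and open points where the adjusted p was not under 0.05. The intervals of the C1q genes span the macrophage marker level, and those of C4b, Hc, Itgb2 and C3ar1 lie above it. C3, C8g and Cd59a, among others, lie below both marker levels. Over all genes tested 90.3% were called lower relative to macrophage markers and 78.1% relative to fibroblast markers. Hc passed the filter on low counts through the ANKO libraries alone.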

How the data were processed

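The labels' protocols state that total RNA of brown adipose tissue was depleted of rRNA with Ribo-Zero Gold. The submitters' processing notes name STAR 2.0.4b, Subread, featureCounts 1.45 and GRCm38. How the counting treated strand and reads with several matches, and which annotation it used, is not given in the sources used here, so overlapping genes and near-identical copies are uncertain. The authors deposited for each library a whole-number count per gene. The deposited CPM is that count per 1e+06 counts of its table, and the deposited RPKM is that CPM per kb of gene length, both checked to within 1e-09. All values given here were recomputed from the counts.

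Symbols were matched by Ensembl ID for 40254 of 41388 genes (GENCODE M21), and the 34 genes each matched 1 row. The 355 rRNA rows entered neither library sizes nor tests; they held a larger share in each WT library than in any ANKO library. The test was edgeR 4.0.16 in R 4.3.3: filterByExpr by group, TMM, robust quasi-likelihood fit without covariate, and Benjamini-Hochberg adjustment over 16705 genes, called under 0.05. The filter needed 0.423 CPM before scaling in 4 libraries. Standard errors came from the F statistic. Marker-relative fits used the mean log2 CPM (prior count 2) of the markers as the scale. The design names 4 control and 4 ANKO mice, so replicates are animals. Alternatives were other scalings, filters, DESeq2 1.42.0, limma-voom (limma 3.58.1), a replicate block, libraries left out, thinning and a muscle marker covariate. Leaving out WT1 and WT2 was chosen after seeing the data. Fits were tested on simulated data.

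The genes, lists and markers were chosen with earlier results of these data known. Among the genes listed by role, values per library are given where a tested gene reached a mean of 1 CPM in a group. Cd46 and Masp1 are exceptions, since they reached that mean but are given by range. The remaining genes are given by range or count, with values per library added for a few. Of the other complement genes the rule took Cfd and up to 3 called genes with the smallest p, 1 of which is not reported here; all others named were chosen after their values were seen.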

Additional observations from a re-analysis of the deposited data

Results flagged for a closer look

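In 4 of the 62 groups of 4 libraries that were examined, 1 library stood apart from the other 3 by Dixon's test, and chance alone sets apart about 1 group in 20. C1qa, a chain of C1q, was at 119.9 CPM in ANKO4 while the other ANKO libraries held 145 to 147 CPM. C2 was at 10.03 CPM in ANKO2 and at 16.7 to 17.5 CPM in the others, and C4b was at 242 CPM in ANKO2 and at 334 to 347 CPM in the others. Both genes belong to the classical convertase, and ANKO2 also held the lowest macrophage marker level of the ANKO libraries, a mean log2 CPM of 6.05 against 6.23 to 6.56. The part of that difference was not tested. Without ANKO2 the log2 fold change was 3.44 for C2 and 4.54 for C4b. C4a was at 0.478 CPM in WT4 and at 0.699 to 0.743 CPM in the other WT libraries, and its counts may be shared with C4b.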

How the results depend on the processing

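Of the 25 called complement genes 20 were called in every alternative that tested them, 19 higher and 1 lower (C8g). C3, C7, Masp1, Clu and Cd59a lost their call in at least 1 and all 5 with the muscle covariate. With it the number lower was 1 in place of 3, the number of other complement genes higher was 4 in place of 7, and C3 (0.00571) and Cfi (0.18) turned to the other side of 0 on the log2 scale. That fit also called fewer of all genes, 2461 higher in place of 5111 and 1828 lower in place of 4615. It gave Cfb 3.29 and Cfp 2.50, both still called. The muscle level used was 1.63 to 7.97 across WT and 9.75 to 10.4 across ANKO (mean log2 CPM), without overlap. This fit therefore cannot well tell muscle from genotype, and the cause of the lost calls was not tested. Across the alternatives 19 to 23 of the genes were called higher and 1 to 4 lower, and leaving out 1 library gave 22 to 23 and 2 to 4. Total counts in place of TMM moved the median of all genes by 0.18 on the log2 scale. Masp2, not called, changed sign with total counts (0.0456) and without ANKO1, and ranged from -0.30 to 0.0239 with 1 library left out.

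Relative to macrophage markers, C1qb (-0.0297), C2 (-0.0432) and C5ar1 (-0.0419) changed sign with the marker median, and so did C2 without WT3 and C5ar2 without WT2 (ranges with 1 library left out -0.0215 to 0.27 and -0.32 to 0.0568). Relative to fibroblast markers, C1s1 (0.16) and C7 (0.17) did so with the marker median, and Clu without WT1 and without ANKO4 (range -0.11 to 0.24). On that scale Masp1 lost its call in 8 of 11 alternatives (0.60 to 1.04) and Cd55 with the marker median (-0.16). None of the marker-relative values that changed sign was called.

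Libraries with the same number did not deviate together (r = 0.11, -0.01, 0.07 and -0.05 for numbers 1 to 4). Unlike numbers gave r from -0.13 to 0.12, so no pairing by number was seen, though such correlations cannot exclude one. With the replicate block 22 genes were called higher and 4 lower, with C1rl added (-0.61, adjusted p = 0.0146). Depth limits the genes near 1 CPM, most of all in ANKO4, where 3 counts are 0.437 CPM on the scaled CPM used here.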

Other observations

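2 further ratios between complement genes were chosen after their values had been seen and carry no test. Within ANKO the leukocyte integrin genes varied more between libraries than C1q did. The RPKM ratio of Itgb2 to C1qa was 0.195, 0.170, 0.366 and 0.414 in ANKO1 to ANKO4 and 0.0844, 0.0774, 0.0965 and 0.0898 in WT1 to WT4. Itgb2 and C1qa were both near their highest in ANKO3, along with C1qb and C1qc, while ANKO4 held much Itgb2 and the least C1qa of the 4. The RPKM ratio of C1ra to C1s1, 2 proteases of the same complex, was 0.261, 0.286, 0.284 and 0.270 in the WT libraries and 0.501, 0.463, 0.442 and 0.426 in the ANKO libraries, without overlap.

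Among the other complement genes, Ptx3, a pentraxin that binds C1q, went from 0.198, 0.583, 0.427 and 0.273 CPM in WT to 3.75, 4.61, 2.93 and 4.81 CPM in ANKO (log2 fold change 3.41, edgeR adjusted p = 1.41e-05). Cd93, a surface protein once proposed as a C1q receptor, rose from 162 ± 41.1 to 256 ± 26.4 CPM, and Cd59b, the copy of Cd59a, fell from 5.60 ± 0.679 to 3.07 ± 1.198 CPM (SD, n = 4 each).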
